A study of Mus musculus with 28 samples.

Results

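The subject of this report is the effect of nicotinamide mononucleotide (NMN) on gene expression in the mouse kidney that was shared by 2 dosing schedules. Its members were chosen by their labels: all 14 kidney libraries of a series of 28, of which the other 14 came from liver. Male C57BL/6 mice aged 8 weeks were gavaged for 7 days with NMN or, as the control, with water, and poly(A) RNA of the kidney was sequenced. The methods of the study give the strain as C57BL6J. In the first schedule the dose was 1340 mg/kg/d, given in 1 gavage a day, to 4 NMN-treated mice beside 4 water mice. In the second it was 2680 mg/kg/d, given in 2 gavages a day, to 3 NMN-treated mice beside 3 water mice. The labels name no transgene or deletion, and they number the libraries of a group as replicates. The question was which genes differed between the 7 NMN-treated and the 7 water mice when schedule was held as a block, and whether they moved the same way at both schedules. Because dose and gavage frequency changed together, and because each schedule had its own water mice, a difference between the schedules cannot be told apart from a difference between these sets of animals.

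NMN is a precursor of nicotinamide adenine dinucleotide (NAD), and cells make NAD from it by the salvage route or, in liver and kidney, also from tryptophan. The kidney cortex is mostly proximal tubule, which reabsorbs filtered glucose, phosphate and amino acids. The proximal tubule also breaks down glutamine into ammonium, which carries acid into the urine: a transporter takes up the glutamine, mitochondrial enzymes that include glutamate dehydrogenase release its nitrogen, and phosphoenolpyruvate carboxykinase takes on the remaining carbon. Further down the nephron, the thick ascending limb and the distal tubule recover salt, and intercalated cells of the collecting duct secrete acid.

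Library totals (reads counted in genes) ran from 13174264 to 33872983. The 4 totals with NMN lay below the 4 with water in the first schedule, and the 3 with NMN lay above the 3 with water in the second. Over both schedules the difference in total did not pass an exact permutation test within schedules (two-sided, p = 0.180). That test averages the schedules, whose opposite differences partly cancel, so it cannot say whether the total followed treatment within each. The same exact test gave p = 0.513 for the share of mitochondrial counts and p = 0.131 for the share of the 20 most abundant genes. The mitochondrial share itself separated the schedules, with 9.71% ± 0.687 (SD, n = 4) in water mice at 1340 mg/kg/d and 20.6% ± 0.917 (SD, n = 3) in those at 2680 mg/kg/d. In clock genes 3 libraries stood apart, which were water replicate 1 of each schedule and NMN replicate 1 at 2680 mg/kg/d. Arntl, which encodes the core clock activator BMAL1, read 30.0, 30.4 and 21.0 CPM (counts per 1000000 counts) there and 8.70 CPM or less in the other 11 libraries. All 14 libraries carried the markers of kidney tubule, led by Kap at a mean of 19132 CPM.

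Of 15989 genes that passed the filter on low counts, 204 were called at an adjusted p under 0.05, which is 1.28% of those tested. NMN-treated mice were higher in 76 of these (0.475%) and lower in 128 (0.801%). The changes were small: the median log2 fold change was 0.46 among the up-regulated genes and -0.50 among the down-regulated genes, against -0.001 over all tested genes. A fold over 1.5 was reached by 72 of the 204 and a fold over 2 by 18, of which 9 rose and 9 fell. All 204 had the same sign at both schedules, which a fit of the common effect favours, beside 57.6% of all tested genes. For 113 of them, 38 higher and 75 lower, no NMN-treated mouse overlapped a water mouse in either schedule. Of all tested genes 1.24% showed no such overlap, 0.450% being higher and 0.788% lower with NMN. In 107 of the 204 the change was larger at 2680 than at 1340 mg/kg/d, and a difference between schedules was called in 0 of them by edgeR, DESeq2 or limma-voom (15 had an unadjusted p under 0.05, as did 4.62% of all tested genes). In simulated counts the edgeR test of that difference recovered 7% of 1.5-fold and 43% of 2-fold differences, so it would miss most differences of these sizes. Without the 3 libraries apart in clock genes, 107 genes were called, 79 of them among the 204. That fit had 11 libraries. In the 36 singled-out genes that lost their call in it, the direction was the same and the median absolute log2 fold change was 0.32, against 0.36 with all 14 libraries, the ratio running from 0.673 to 1.15. Leaving out a library gave between 100 and 290 calls, with the fewest without water replicate 3 at 2680 mg/kg/d (100) and without NMN replicate 2 at 1340 or NMN replicate 3 at 2680 mg/kg/d (110 each). Of 77 called genes singled out by rule, as list members or after their values were seen, 33 lost their call without water replicate 3 at 2680 mg/kg/d. Among those named by rule these were Acaa1b, Aqp6, Asns, Cyp4b1, Ebp, Entpd1, Fam107a, Gpc1, Hk1, Mdk, Ppp1r15a and others. The p-values measure the spread among these samples.

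**Figure D1:**
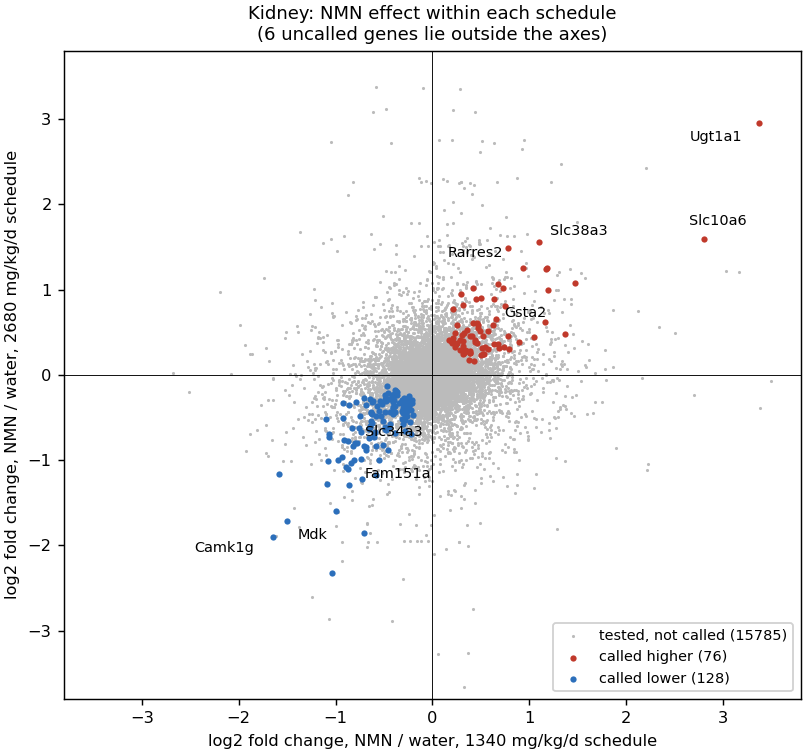
Log2 fold change of NMN over water at 1340 mg/kg/d (horizontal axis) and at 2680 mg/kg/d (vertical axis) for each tested gene, with the 76 genes called higher in red, the 128 called lower in blue and the others in grey. The called genes lie at the upper right and lower left, and 6 uncalled genes lie outside the axes.

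Gsta2, Cdo1 and Akr1c13 were among the 12 up-regulated genes with the smallest p. Gsta2 (ENSMUSG00000057933.10), a glutathione S-transferase, read 169, 166, 174 and 203 CPM in water and 270, 282, 332 and 219 CPM in NMN-treated mice at 1340 mg/kg/d. Gsta2 at 2680 mg/kg/d read 335, 266 and 294 CPM in water and 510, 504 and 651 CPM in NMN-treated mice. Every NMN-treated mouse was above every water mouse of its schedule, with a log2 fold change of 0.75 ± 0.092 (SE) and an adjusted p of 0.000603 (1.68-fold). Cdo1, cysteine dioxygenase, which starts the breakdown of cysteine towards taurine, rose by 0.43 ± 0.069 on the log2 scale (adjusted p = 0.00297) and did not overlap either. Akr1c13, an aldo-keto reductase, had a log2 fold change of 0.64 ± 0.11 (SE) and an adjusted p of 0.00570, and NMN replicate 2 at 2680 mg/kg/d (11.3 CPM) lay within the range of its water mice (9.65 to 12.8 CPM). The same list held Fosl2, an AP-1 transcription factor (0.54 ± 0.098, adjusted p = 0.00723), Esrrb, an orphan nuclear receptor related to the estrogen receptors (0.52 ± 0.092, adjusted p = 0.00605), and Pigr, the receptor that carries polymeric immunoglobulins across epithelia (0.50 ± 0.092, adjusted p = 0.00762). It also held Csrp1, a LIM-domain protein of the actin cytoskeleton (0.42 ± 0.075, adjusted p = 0.00605), Asb11, an ankyrin-repeat protein (1.09 ± 0.17, adjusted p = 0.00188), and Rundc3a (0.52 ± 0.096, adjusted p = 0.00745). The call of Pigr was lost without the 3 libraries apart in clock genes (adjusted p = 0.0584).

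Fam151a (ENSMUSG00000034871.2) had the smallest p of all tested genes, with 48.0, 42.0, 50.5 and 39.1 CPM in water and 26.9, 24.8, 27.7 and 22.7 CPM in NMN-treated mice at 1340 mg/kg/d. Fam151a at 2680 mg/kg/d read 32.3, 41.2 and 43.8 CPM in water and 21.8, 20.7 and 16.4 CPM in NMN-treated mice. It had a log2 fold change of -0.89 ± 0.089 (SE) and an adjusted p of 2.11e-05. Its exons overlap those of Acot11 and counting ignored strand, so reads that lay in exons of both genes were left out of its count. Dpep1, the brush-border dipeptidase, had a log2 fold change of -0.52 ± 0.077 (SE) and an adjusted p of 0.00159. Cltrn, collectrin, which brings amino acid transporters to the apical membrane, had a log2 fold change of -0.52 ± 0.078 (SE) and an adjusted p of 0.00178. Tfpi2, a serine protease inhibitor, fell from 20.8, 12.7, 14.4 and 13.6 CPM to 9.24, 5.58, 7.48 and 6.95 CPM at 1340 mg/kg/d and from 11.9, 11.5 and 13.2 CPM to 7.80, 7.53 and 6.82 CPM at 2680 mg/kg/d (-0.92 ± 0.13, adjusted p = 0.00108). None of these 4 genes overlapped between treatments in either schedule. Defb29, a beta-defensin (-0.75 ± 0.10, adjusted p = 0.00108), Evc, a protein at the base of the primary cilium (-0.40 ± 0.061, adjusted p = 0.00184), and Chd3, a helicase of the NuRD chromatin remodelling complex (-0.36 ± 0.057, adjusted p = 0.00234), did not overlap either. The largest fall in this list was that of Camk1g, a calmodulin-dependent kinase (-1.76 ± 0.27, adjusted p = 0.00224), but at no more than 2.82 CPM in any kidney.

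**Figure D2:**
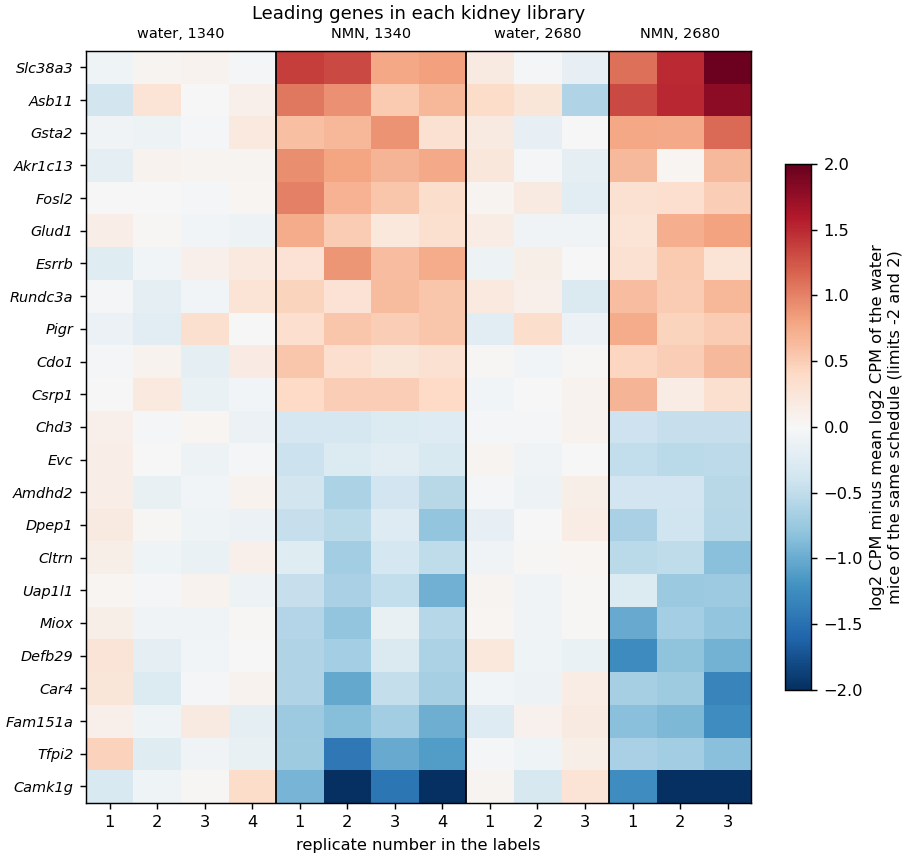
Of the 12 up-regulated and 12 down-regulated genes with the smallest p, 11 and 12 are drawn (rows) in each kidney library (columns, by treatment and schedule), as log2 CPM minus the mean log2 CPM of the water mice of the same schedule, with red above and blue below. Colours are shared across the NMN libraries of both schedules, and in the row of Akr1c13 an NMN-treated mouse sits within the range of its water mice.

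Genes of acid-base handling and ammonium production held the most up-regulated calls of the 26 pathway lists, 4 of 24 tested members, with 1 down-regulated. These 5 calls held without the 3 libraries apart in clock genes. Slc38a3 (ENSMUSG00000010064.15), the glutamine transporter SNAT3 of the proximal tubule basolateral membrane, read 58.1, 64.0, 64.6 and 60.4 CPM in water mice and 161, 154, 106 and 109 CPM in NMN-treated mice at 1340 mg/kg/d. At 2680 mg/kg/d it read 84.9, 73.8 and 67.0 CPM in water mice and 161, 211 and 293 CPM in NMN-treated mice. The lowest NMN-treated mouse of each schedule was above the highest water mouse, and the common effect had a log2 fold change of 1.30 ± 0.14 (SE) and an adjusted p of 0.00105 (2.46-fold).

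Glud1 (ENSMUSG00000021794.16), glutamate dehydrogenase, which uses NAD as an acceptor, read 618, 571, 540 and 522 CPM in water and 941, 799, 653 and 700 CPM in NMN-treated mice at 1340 mg/kg/d. Its values at 2680 mg/kg/d were 595, 511 and 514 CPM in water and 652, 889 and 939 CPM in NMN-treated mice, with no overlap and a log2 fold change of 0.53 ± 0.089 (SE) and an adjusted p of 0.00444. Pck1, phosphoenolpyruvate carboxykinase, was picked out after its values were seen and did not pass the threshold (0.77 ± 0.19, adjusted p = 0.0755). Its values were 5070, 3466, 3177 and 3835 CPM against 6810, 6052, 5019 and 6831 CPM with NMN at 1340 mg/kg/d, and 2253, 1955 and 1620 against 1819, 4538 and 4502 CPM at 2680 mg/kg/d, where NMN replicate 1 lay within the water mice and the other NMN-treated mice above them.

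Atp6v0a4, the a4 subunit of the proton pump that intercalated and proximal cells place in the apical membrane, had a log2 fold change of 0.40 ± 0.076 (SE) and an adjusted p of 0.00935, and its exons overlap 2 other genes. The anion exchanger pendrin (Slc26a4, log2 fold change 0.08), the ammonia channel Rhcg (0.06), the proton pump subunit Atp6v1b1 (0.09) and the sodium-proton exchanger Slc9a3 (-0.01) were not called. Car4 (ENSMUSG00000000805.18), the membrane-bound carbonic anhydrase that serves bicarbonate recovery, moved the other way. It read 221, 155, 183 and 196 CPM in water and 124, 92.6, 134 and 118 CPM in NMN-treated mice at 1340 mg/kg/d. Car4 at 2680 mg/kg/d read 191, 185 and 220 CPM in water and 125, 121 and 78.9 CPM in NMN-treated mice, with no overlap and a log2 fold change of -0.77 ± 0.11 (SE) and an adjusted p of 0.00210. Of the 24 tested members 12 (50%) were higher and 3 (12.5%) lower at both schedules, beside 28.5% and 29.1% of all tested genes, and the median log2 fold change was 0.09.

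**Figure D3:**
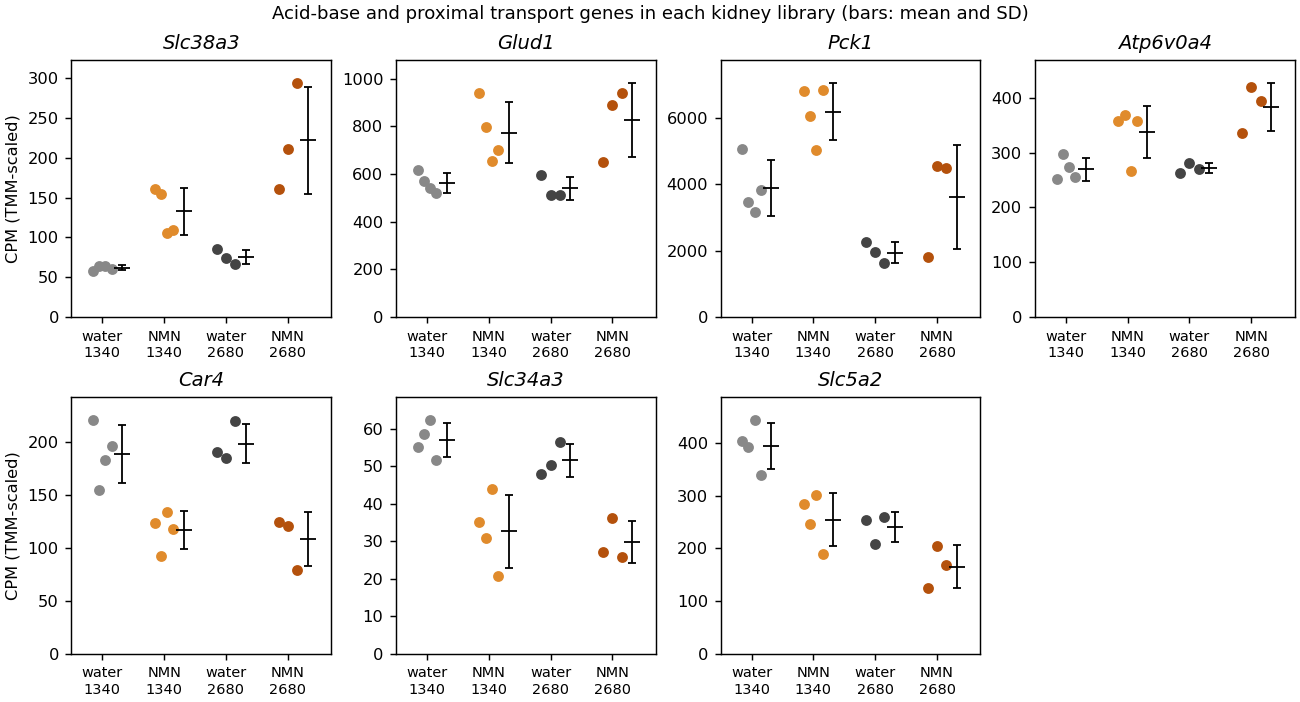
TMM-scaled CPM (vertical axes, from 0) in each kidney library for 5 genes of the acid-base list and for Slc34a3 and Slc5a2, with points for mice and bars for the mean and SD of each group. Slc38a3, Glud1, Car4, Slc34a3 and Slc5a2 show no overlap between NMN and water within a schedule, whereas Pck1 and Atp6v0a4 each show overlap in at least 1 schedule.

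Of 26 tested genes of proximal tubule reabsorption 4 were down-regulated and 0 up-regulated. Slc34a3 (ENSMUSG00000006469.13), the sodium-phosphate cotransporter NaPi-IIc, read 55.2, 58.8, 62.4 and 51.8 CPM in water and 35.3, 30.8, 44.0 and 20.7 CPM in NMN-treated mice at 1340 mg/kg/d. Slc34a3 at 2680 mg/kg/d read 48.0, 50.4 and 56.5 CPM in water and 27.2, 36.2 and 25.9 CPM in NMN-treated mice. Its log2 fold change was -0.80 at each schedule and -0.80 ± 0.12 in the common fit (adjusted p = 0.00424), with no overlap. Slc5a2 (ENSMUSG00000030781.13), the glucose cotransporter SGLT2, read 405, 393, 444 and 339 CPM in water and 284, 246, 301 and 189 CPM in NMN-treated mice at 1340 mg/kg/d. Slc5a2 at 2680 mg/kg/d read 255, 209 and 260 CPM in water and 124, 204 and 169 CPM in NMN-treated mice. No NMN-treated mouse reached its water mice, and the gene had a log2 fold change of -0.59 ± 0.11 (SE) and an adjusted p of 0.0145, with exons that overlap BC017158. The main phosphate cotransporter Slc34a1 fell less (-0.32 ± 0.079, adjusted p = 0.0454), as did Dab2, the endocytic adaptor of megalin (-0.34 ± 0.077, adjusted p = 0.0259). Megalin itself (Lrp2, log2 fold change -0.17), cubilin (Cubn, 0.03), SGLT1 (Slc5a1, 0.07) and the neutral amino acid transporter Slc6a19 (0.04) were not called. Of the 26 members 46.2% were lower and 23.1% higher at both schedules, with a median log2 fold change of -0.04. The calls of Slc34a1, Dab2 and Slc5a2 were lost without the 3 libraries apart in clock genes, and that of Slc34a3 held. The call of Slc34a1 was also lost under RLE scaling, with mitochondrial genes left out, without the robust option and in 11 of 14 fits with a library left out.

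The proximal tubule marker list moved with these genes. Of its 12 members Slc34a1 and Slc5a2, which the reabsorption list holds too, and Miox and Kap fell and 0 rose, and 66.7% were lower and 25% higher at both schedules. Of these 4 calls that of Miox held without the 3 libraries apart in clock genes. Its summed level was 37271 ± 4755 CPM (SD, n = 4) in water mice and 29774 ± 3084 CPM in NMN-treated mice at 1340 mg/kg/d, and 36850 ± 1421 against 28715 ± 3646 CPM (SD, n = 3) at 2680 mg/kg/d. Kap, the androgen-regulated kidney protein, was its most abundant gene and fell by 1.35-fold (-0.44 ± 0.10, adjusted p = 0.0363). Without it the sums were 15774 CPM in water and 13927 CPM in NMN-treated mice at 1340 mg/kg/d, and 14161 against 11912 CPM at 2680 mg/kg/d. Markers of the thick ascending limb, led by Umod, summed to 4499 ± 344 CPM in water and 5662 ± 285 CPM in NMN-treated mice at 1340 mg/kg/d, and to 3735 ± 473 against 4070 ± 327 CPM at 2680 mg/kg/d, with 0 of 8 called by edgeR and 1 by DESeq2 (4 at an unadjusted p under 0.05). Podocyte markers, led by Podxl, were higher at both schedules in 9 of 10 cases with 0 called by edgeR or DESeq2 (5 at an unadjusted p under 0.05), and summed to 391 ± 66.5 against 498 ± 88.1 CPM and to 343 ± 50.5 against 409 ± 36.1 CPM. The part of these shifts in the results on single genes was not tested, and in whole kidney fewer cells of a type and less RNA per cell cannot be told apart. The sums of principal cell, intercalated cell, distal convoluted tubule, endothelial, stromal and macrophage markers differed by 1.11-fold or less between treatments over both schedules. Lymphocyte markers summed to 14.7 CPM or less in every library. Defining markers of tissues that a dissection could carry along were near 0: 7 of 10 adrenal genes, 7 of 8 genes of the exocrine pancreas, 4 of 8 of skeletal muscle and 4 of 8 of neutrophils had at most 3 counts in every library. The pancreas list held 1 tested gene, Cela1, an elastase, which fell (log2 fold change -0.41, adjusted p = 0.0297) at a mean of 55.0 CPM. Fat markers, led by Fabp4, summed to 126 ± 51.9 against 106 ± 79.0 CPM at 1340 mg/kg/d and to 581 ± 120 against 605 ± 221 CPM at 2680 mg/kg/d. Blood markers summed to 132 ± 60.7 against 187 ± 107 CPM and to 159 ± 84.8 against 121 ± 37.1 CPM, and urothelial markers to 25.2 ± 3.0 against 26.6 ± 2.51 CPM and to 26.2 ± 5.48 against 44.5 ± 26.2 CPM, where NMN replicate 1 held 74.2 CPM. Hepatocyte markers, led in these kidneys by Cyp2e1, summed to 1954 ± 205 against 1896 ± 336 CPM and to 2636 ± 65.9 against 2877 ± 369 CPM. Without Cyp2e1 the sums were 411 against 454 CPM and 338 against 368 CPM. Of the 12 hepatocyte markers 66.7% were higher and 8.33% lower at both schedules, with a median log2 fold change of 0.29 and 0 called.

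Miox (ENSMUSG00000022613.8), myo-inositol oxygenase, which is made almost only in the kidney and opens the breakdown of inositol, read 2133, 1884, 1883 and 1999 CPM in water and 1316, 1147, 1774 and 1324 CPM in NMN-treated mice at 1340 mg/kg/d. At 2680 mg/kg/d it read 1921, 1777 and 1903 CPM in water and 931, 1165 and 1076 CPM in NMN-treated mice. All NMN-treated mice were below all water mice, with a log2 fold change of -0.64 ± 0.089 (SE) and an adjusted p of 0.00105. Agxt2, a mitochondrial aminotransferase of glyoxylate and methylarginines, had a log2 fold change of -0.64 ± 0.10 (SE) and an adjusted p of 0.00297, and Dao, D-amino acid oxidase, had a log2 fold change of -0.33 ± 0.064 (SE) and an adjusted p of 0.0105. Aldh4a1, which finishes the breakdown of proline to glutamate, had a log2 fold change of -0.26 ± 0.061 (SE) and an adjusted p of 0.0334. These were the 3 calls among 19 tested members of the glyoxylate, proline and glycine list, of which 0 rose. Those of Dao and Aldh4a1 were lost without the 3 libraries apart in clock genes, that of Aldh4a1 also in 10 of 14 fits with a library left out, and that of Agxt2 held in all of these. Hao2, a peroxisomal hydroxyacid oxidase, was the 1 gene of all 15989 (0.00625%) in which the schedules were called different, with log2 fold changes of -0.14 and -1.31 (adjusted p of the difference 0.0415), and its common effect was not called (adjusted p = 0.161). The schedules differed in 0 genes with upper quartile scaling, limma-voom, at least 10 counts in every library, no robust option or without the 3 libraries apart in clock genes, and in 9 with DESeq2.

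On the route from tryptophan to NAD 2 of 12 tested genes fell and 0 rose, and on the salvage route, which uses NMN and nicotinamide, 0 of 16 were called. Acmsd (ENSMUSG00000026348.7), which diverts an intermediate of the tryptophan route away from NAD, read 164, 115, 128 and 90.0 CPM in water and 72.2, 84.4, 88.3 and 52.5 CPM in NMN-treated mice at 1340 mg/kg/d. Acmsd at 2680 mg/kg/d read 180, 163 and 161 CPM in water and 108, 72.0 and 75.6 CPM in NMN-treated mice. No NMN-treated mouse reached its water mice, with a log2 fold change of -0.84 ± 0.15 (SE) and an adjusted p of 0.0123, and its exons overlap 2900009J06Rik. Qprt (ENSMUSG00000030674.5), quinolinate phosphoribosyltransferase, the step of that route that forms the pyridine nucleotide, read 85.4, 76.0, 81.4 and 82.1 CPM in water and 59.6, 57.6, 66.7 and 64.3 CPM in NMN-treated mice at 1340 mg/kg/d. Its values at 2680 mg/kg/d were 67.2, 76.6 and 70.1 CPM in water and 59.2, 53.7 and 53.7 CPM in NMN-treated mice, again with no overlap and a log2 fold change of -0.38 ± 0.059 (SE) and an adjusted p of 0.00234. Acmsd acts on the precursor of quinolinate, and Qprt on quinolinate itself. Of the 12 members of the tryptophan list 6 were lower and 1 was higher at both schedules.

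Of 16 tested genes of NAD salvage and nicotinamide clearance, 0 were called by edgeR, DESeq2 or limma-voom (4 had an unadjusted p under 0.05), 8 were higher and 3 lower at both schedules, and the median log2 fold change was 0.11. Nampt, the rate-limiting enzyme of salvage from nicotinamide, read 125, 147, 157 and 143 CPM in water and 202, 198, 164 and 199 CPM in NMN-treated mice at 1340 mg/kg/d. At 2680 mg/kg/d the ranges overlapped, with 157, 214 and 191 CPM in water and 180, 219 and 194 CPM in NMN-treated mice, and the common effect had a log2 fold change of 0.27 ± 0.084 (SE) and an adjusted p of 0.122. Nmnat1, which turns NMN into NAD in the nucleus, had a log2 fold change of 0.15 ± 0.094 (SE) and an adjusted p of 0.524. Nmrk1, the kinase that makes NMN from nicotinamide riboside, had a log2 fold change of -0.09 ± 0.13 (SE) and an adjusted p of 0.831. Slc12a8, described as an NMN transporter, stayed at or below 0.938 CPM and Nnmt, which methylates nicotinamide, at or below 1.75 CPM in every library, and neither was called (adjusted p = 0.591 and 0.398). Among 24 NAD-consuming and ADP-ribose enzymes 0 were called by edgeR, DESeq2 or limma-voom (2 at an unadjusted p under 0.05) and the median log2 fold change was 0.01. Sirt1, Parp1, Cd38 and Macrod1 had log2 fold changes of -0.06 ± 0.092, 0.04 ± 0.070, 0.21 ± 0.15 and -0.11 ± 0.080, and the 2 smallest p-values in this list belonged to Macrod2 (-0.25 ± 0.078, adjusted p = 0.128) and Tnks (0.19 ± 0.076, adjusted p = 0.264).

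Several genes of amino sugar metabolism were among the calls. They were picked out after their values were seen, and no list of this pathway was fixed. Uap1l1, a homolog of the enzyme that makes UDP-N-acetylglucosamine, read 95.6, 91.5, 97.4 and 86.3 CPM in water and 67.1, 59.3, 66.1 and 47.6 CPM in NMN-treated mice at 1340 mg/kg/d. Uap1l1 at 2680 mg/kg/d read 63.2, 57.8 and 61.6 CPM in water and 50.2, 36.5 and 36.7 CPM in NMN-treated mice. It did not overlap between treatments and had a log2 fold change of -0.60 ± 0.082 (SE) and an adjusted p of 0.00105. Amdhd2, which deacetylates N-acetylglucosamine-6-phosphate, fell in the same way (-0.46 ± 0.068, adjusted p = 0.00153), as did Gnpda1, which turns the resulting glucosamine-6-phosphate into fructose-6-phosphate (-0.35 ± 0.075, adjusted p = 0.0204), and Renbp, which interconverts N-acetylglucosamine and N-acetylmannosamine (-0.40 ± 0.087, adjusted p = 0.0217). Mgea5, the enzyme that removes O-linked N-acetylglucosamine from proteins, rose (0.34 ± 0.067, adjusted p = 0.0112). Also picked afterwards among the down-regulated genes was Fuca2, an alpha-fucosidase (-0.43 ± 0.074, adjusted p = 0.00502). Lysosomal hydrolases picked in the same way were Ctsz (-0.31 ± 0.064, adjusted p = 0.0173), Ctsl (-0.26 ± 0.063, adjusted p = 0.0363) and Galns, a sulfatase of keratan sulfate (-0.25 ± 0.059, adjusted p = 0.0337). Of the genes in this paragraph Gnpda1, Renbp, Mgea5, Ctsz, Ctsl and Galns lost their call without the 3 libraries apart in clock genes. The call of Ctsl was also lost in 11 of 14 fits with a library left out, and that of Galns in 9.

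Salt transport of the distal nephron held 3 up-regulated genes of 26 tested and 0 down-regulated. Atp1b1, a beta subunit of the sodium-potassium ATPase, read 2047, 2084, 1988 and 1929 CPM in water and 2674, 2577, 2244 and 2502 CPM in NMN-treated mice at 1340 mg/kg/d. Atp1b1 at 2680 mg/kg/d read 1950, 2393 and 2293 CPM in water and 2326, 2993 and 2548 CPM in NMN-treated mice. NMN-treated and water mice overlapped at the higher dose only, and the gene had a log2 fold change of 0.28 ± 0.071 (SE) and an adjusted p of 0.0476. Of the 26 members 69.2% were higher and 11.5% lower at both schedules, with a median log2 fold change of 0.15. The cotransporters Slc12a3 (0.10) and Slc12a1 (0.23, or 0.43 and -0.04 at the 2 schedules) were not called. The call of Atp1b1 was lost without the 3 libraries apart in clock genes and in 11 of the 14 fits with a library left out. In the list of water transport and osmolytes Aqp6, an intracellular channel of intercalated cells, rose (0.28 ± 0.067, adjusted p = 0.0367) and Miox fell, of 20 tested, and the call of Aqp6 was lost without the 3 libraries apart in clock genes. Slc5a3, which takes up inositol, had a log2 fold change of 0.54 ± 0.14 (SE) and an adjusted p of 0.0789. In the calcium and magnesium list 0 of 21 were called by edgeR or limma-voom and 2 by DESeq2 (5 at an unadjusted p under 0.05), 47.6% were higher at both schedules, and the smallest p-values were those of Trpv5, the distal calcium channel (0.37 ± 0.095, adjusted p = 0.0518), and Egf (0.35 ± 0.091, adjusted p = 0.0569). In the renin-angiotensin and kallikrein list Cltrn was the 1 call of 13, and Ren1, renin, had a log2 fold change of 0.56 ± 0.17 (SE) and an adjusted p of 0.148.

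Detoxification genes rose in 3 of 23 cases in the glutathione and NRF2 list and fell in 0. Beside Gsta2 these were Nqo1, a quinone reductase that is a textbook target of NRF2, with a log2 fold change of 0.50 ± 0.095 (SE) and an adjusted p of 0.0105, and Gstm1, with a log2 fold change of 0.45 ± 0.11 (SE) and an adjusted p of 0.0407. The calls of Nqo1 and Gstm1 were lost without the 3 libraries apart in clock genes, that of Gstm1 also under a replicate block and in 10 of 14 fits with a library left out, and that of Gsta2 held in all of these. Gsta2 and Gstm1 belong to families of near-identical genes, so reads shared by their copies were not counted. The rate-limiting enzyme of glutathione synthesis, Gclc (log2 fold change 0.01), and its partner Gclm (0.02) were not called, and the list had a median log2 fold change of 0.07. In the list of fatty acid oxidation and PPAR-alpha targets 3 of 43 genes rose and 1 fell, with 62.8% higher and 11.6% lower at both schedules and a median of 0.12. The up-regulated genes were Acaa1b (0.39 ± 0.086, adjusted p = 0.0230) and Hsd17b4 (0.28 ± 0.064, adjusted p = 0.0290), enzymes of peroxisomal beta-oxidation, and Acot2, a mitochondrial acyl-CoA thioesterase (0.45 ± 0.10, adjusted p = 0.0325). The gene that fell was Cyp4b1, a cytochrome P450 (-0.35 ± 0.081, adjusted p = 0.0290). All 4 of these calls were lost without the 3 libraries apart in clock genes. Among organic ion transporters Abcc4, the efflux pump MRP4, rose from 41.3, 48.9, 51.6 and 45.9 CPM to 72.3, 106, 66.5 and 55.5 CPM at 1340 mg/kg/d and from 42.0, 48.0 and 57.9 CPM to 89.9, 84.2 and 136 CPM at 2680 mg/kg/d (0.85 ± 0.16, adjusted p = 0.0182). Slc22a28 (-0.76 ± 0.13, adjusted p = 0.00745) and Slc22a30 (-0.52 ± 0.12, adjusted p = 0.0356), members of the organic anion transporter family with close copies, fell, and the other 21 of 24 were not called. Without the 3 libraries apart in clock genes the calls of Abcc4 (0.79) and Slc22a30 (-0.35) were lost. In cholesterol synthesis Ebp, a sterol isomerase, was the 1 call of 25 (0.57 ± 0.12, adjusted p = 0.0230), beside 40% of members lower and 20% higher at both schedules.

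Genes that glucocorticoids induce were higher with NMN at both schedules in 18 of 20 cases (90.0%, beside 28.5% of all tested genes), and lower at both in 0, with a median log2 fold change of 0.59, and 1 of them, Fam107a, was called by edgeR. DESeq2 called 6 and limma-voom 2, and 11 had an unadjusted p under 0.05. Fam107a, a small actin-associated protein, read 54.7, 65.7, 52.2 and 58.5 CPM in water and 62.5, 83.9, 72.7 and 86.6 CPM in NMN-treated mice at 1340 mg/kg/d. Fam107a at 2680 mg/kg/d read 61.3, 93.7 and 77.0 CPM in water and 117, 104 and 96.8 CPM in NMN-treated mice. NMN-treated and water mice overlapped at 1340 mg/kg/d, and it had a log2 fold change of 0.42 ± 0.090 (SE) and an adjusted p of 0.0204, a call that was lost without the 3 libraries apart in clock genes. The other members spread widely within a group. Zbtb16, a zinc finger repressor, read 0.956, 1.90, 3.90 and 5.52 CPM in water and 11.2, 54.0, 38.7 and 6.88 CPM in NMN-treated mice at 1340 mg/kg/d. Zbtb16 at 2680 mg/kg/d read 4.35, 0.644 and 4.38 CPM in water and 1.75, 12.6 and 7.40 CPM in NMN-treated mice (log2 fold change 2.37 ± 0.71, adjusted p = 0.159). Pdk4, which shuts off pyruvate oxidation (1.38 ± 0.40, adjusted p = 0.137), Fkbp5, a chaperone that restrains the glucocorticoid receptor (0.70 ± 0.21, adjusted p = 0.150), Tsc22d3 (0.60 ± 0.27, adjusted p = 0.375) and Per1 (1.06 ± 0.36, adjusted p = 0.219) did not pass the threshold either.

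Immediate early genes were higher at both schedules in 10 of 17 cases and lower in 0, with a median log2 fold change of 0.45 and 0 called by edgeR, DESeq2 or limma-voom (2 at an unadjusted p under 0.05). In the insulin and gluconeogenesis list 68.2% were higher at both schedules with a median of 0.18, and Hk1, hexokinase 1, was the 1 edgeR call of 22 (0.30 ± 0.068, adjusted p = 0.0242), while Foxo3 (0.74 ± 0.17, adjusted p = 0.0604), Txnip (0.89 ± 0.21, adjusted p = 0.0732) and Igfbp1 (1.15 ± 0.29, adjusted p = 0.0812) were not called. In this list DESeq2 called 5 and limma-voom 1, and 10 had an unadjusted p under 0.05. The call of Hk1 was lost without the 3 libraries apart in clock genes, at the same log2 fold change of 0.30. Of 21 clock genes 0 were called by edgeR or limma-voom and 1 by DESeq2 (2 at an unadjusted p under 0.05). Nr1d1, the repressor REV-ERB-alpha, had a log2 fold change of 0.73 ± 0.23 (SE) and an adjusted p of 0.171, and Arntl and Dbp had SEs larger than their effects (-0.53 ± 0.61 and 0.43 ± 0.58). Bhlhe40 had a log2 fold change of 0.75 at 1340 and -0.48 at 2680 mg/kg/d.

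Promoters of the called genes were searched for the letters of 6 transcription factor motifs in RefSeq promoter sequences (GRCm38.p6, 250 bases before to 50 after each gene start), which were at hand for 55 of the 76 up-regulated and 93 of the 128 down-regulated genes. The palindromic glucocorticoid motif, GNACA and TGTNC with 3 bases of any kind (N) between them, searched on both strands, was in the promoters of 5 of the 55 up-regulated genes and 0 of the 93 down-regulated genes. Counted by promoter this was 6 of 78 (7.69%), with Fam107a held by 2 overlapping entries, beside 59 of 14917 promoters (0.396%) of tested genes. The stretches that hold it before the gene start are shown for 4 of these genes, since they carry the match, with the motif in capitals and the sequence on the gene's own strand from 5′ to 3′. In the fifth, Atp6v0a4, the match lay after the gene start.
Fam107a (chr14:8309861-8309921, minus strand, motif from 118 bases before the start): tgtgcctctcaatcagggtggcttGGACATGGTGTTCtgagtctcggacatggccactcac
Slc10a6 (chr5:103629530-103629590, minus strand, 163 bases before): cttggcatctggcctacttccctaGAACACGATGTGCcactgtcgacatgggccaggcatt
Map3k6 (chr4:133240613-133240673, plus strand, 181 bases before): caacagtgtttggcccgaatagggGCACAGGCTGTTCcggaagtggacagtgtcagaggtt
Epcam (chr17:87635886-87635946, plus strand, 69 bases before): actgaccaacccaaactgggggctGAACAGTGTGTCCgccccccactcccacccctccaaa
A match of letters is a description of the sequence and not evidence of binding.

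Of these genes Slc10a6, a carrier of sulfated steroids, read 0.127, 0.534, 0 and 0.552 CPM in water and 2.09, 2.37, 3.57 and 0.668 CPM in NMN-treated mice at 1340 mg/kg/d. Slc10a6 at 2680 mg/kg/d read 0.734, 0.451 and 0.450 CPM in water and 0.807, 1.73 and 2.43 CPM in NMN-treated mice. It was higher in every NMN-treated mouse than in the water mice of its schedule and had a log2 fold change of 2.23 ± 0.46 (SE) and an adjusted p of 0.0190, at 76 counts at most in a library. That call was lost with limma-voom, under a replicate block (adjusted p = 0.0778), without the schedule block and without NMN replicate 3 at 2680 mg/kg/d. Map3k6, a stress kinase, had a log2 fold change of 1.30 ± 0.27 (SE) and an adjusted p of 0.0258, and 1 NMN-treated mouse at 2680 mg/kg/d (4.08 CPM) lay within its water mice (up to 4.74 CPM). Its call was lost with limma-voom, under a replicate block (adjusted p = 0.132), without the schedule block and in 5 of 14 fits with a library left out. Epcam, the epithelial adhesion molecule, had a log2 fold change of 0.29 ± 0.062 (SE) and an adjusted p of 0.0204 with no overlap, a call that was lost without the 3 libraries apart in clock genes. The other motifs stood closer to their background: the E-box CACGTG in 14.1% of promoters of up-regulated genes, 7.63% of those of down-regulated genes and 9.46% of all, and the antioxidant response letters TGACNNNGC in 12.8%, 10.7% and 14.2%. The D-box TTATGNAA was in 0 of 78, 6 of 131 (4.58%) and 2.19% of all, the FoxO letters GTAAACA in 1.28%, 3.05% and 2.86%, and the ROR element (AANTA followed directly by GGTCA) in 0, 0 and 0.194%.

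Further up-regulated genes are named here after their values were seen. Klf11, a Krüppel-like repressor, read 8.92, 9.68, 10.7 and 8.03 CPM in water and 28, 27.0, 16.5 and 12 CPM in NMN-treated mice at 1340 mg/kg/d. Klf11 at 2680 mg/kg/d read 7.34, 9.08 and 12.9 CPM in water and 16.8, 14.4 and 13.9 CPM in NMN-treated mice, with no overlap (0.93 ± 0.19, adjusted p = 0.0209). Stat3, the transcription factor of cytokine signalling, rose by 1.26-fold (0.33 ± 0.071, adjusted p = 0.0204), and Eif4ebp3, an inhibitor of cap-dependent translation, by 2.32-fold (1.22 ± 0.24, adjusted p = 0.0148). Pdxk, which makes the active form of vitamin B6, the cofactor of aminotransferases, had a log2 fold change of 0.78 ± 0.14 (SE) and an adjusted p of 0.0123, and Gpt, alanine aminotransferase, had a log2 fold change of 0.37 ± 0.087 (SE) and an adjusted p of 0.0322. Glycolytic Pkm (0.27 ± 0.066, adjusted p = 0.0405) and Pfkp (0.30 ± 0.072, adjusted p = 0.0410) rose, as did Aldh1a1, a retinaldehyde dehydrogenase (0.65 ± 0.16, adjusted p = 0.0426). Each of these 3 calls was lost in 10 of 14 fits with a library left out. Those of Pkm and Pfkp were also lost with upper quartile scaling, and that of Pfkp with limma-voom. Ugt1a1, a bilirubin glucuronosyltransferase, had the largest fold of the genes called, at 7.91 CPM or less (3.18 ± 0.64, adjusted p = 0.0291). It shares exons with the other genes of its cluster, so its count leaves out reads in those exons, and its call was lost with limma-voom and in 8 of 14 fits with a library left out. Of the genes in this paragraph the calls of Stat3 and Eif4ebp3 held without the 3 libraries apart in clock genes, and the others were lost.

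Injury and inflammation lists held few calls. Mdk (ENSMUSG00000027239.14), midkine, a growth factor of epithelial injury and repair, was the 1 call among 22 tested genes of tubule injury and repair, and it fell. It read 27.8, 30.9, 23.1 and 33.1 CPM in water and 8.37, 10.4, 12.9 and 8.75 CPM in NMN-treated mice at 1340 mg/kg/d. Mdk at 2680 mg/kg/d read 36.7, 36.7 and 37.1 CPM in water and 22.7, 6.08 and 5.22 CPM in NMN-treated mice. No NMN-treated mouse reached its water mice, and the common effect had a log2 fold change of -1.60 ± 0.29 (SE) and an adjusted p of 0.0223 (3.03-fold lower). Havcr1, the tubule injury marker KIM-1, read 1.02, 1.13, 1.55 and 1.1 CPM in water and 8.81, 1.26, 1.42 and 2.21 CPM in NMN-treated mice at 1340 mg/kg/d. Havcr1 at 2680 mg/kg/d read 5.25, 1.55 and 0.772 CPM in water and 3.45, 3.46 and 19.4 CPM in NMN-treated mice. In each schedule 1 NMN-treated mouse had a high value, and the common effect was not called (1.65 ± 0.63, adjusted p = 0.286). Lcn2, which encodes the injury marker NGAL, had a log2 fold change of 0.06 ± 0.31 (SE) and an adjusted p of 0.965. Of 23 proliferation genes 0 were called by edgeR, DESeq2 or limma-voom (3 at an unadjusted p under 0.05), 69.6% were lower and 4.35% higher at both schedules, and the median log2 fold change was -0.30. Of 24 interferon response genes 0 were called by edgeR, DESeq2 or limma-voom (2 at an unadjusted p under 0.05) and 41.7% were lower at both schedules. Of 19 p53 targets 0 were called by edgeR or limma-voom and 2 by DESeq2 (4 at an unadjusted p under 0.05), and 57.9% were higher at both schedules. In the list of endoplasmic reticulum stress and amino acid response Asns, asparagine synthetase (0.97 ± 0.23, adjusted p = 0.0485), and Ppp1r15a, the phosphatase subunit GADD34 (0.40 ± 0.090, adjusted p = 0.0241), rose, of 21, of which the call of Asns was lost without the 3 libraries apart in clock genes. It was also lost with mitochondrial genes left out, limma-voom, a replicate block, thinned counts or no schedule block, and in 11 of 14 fits with a library left out. The call of Ppp1r15a was lost without the schedule block and in 6 of 14 fits with a library left out. In the list of purine and urate handling Entpd1, the ectonucleotidase CD39, rose (0.67 ± 0.16, adjusted p = 0.0337), of 28, a call that was lost without the 3 libraries apart in clock genes. Oxidative phosphorylation genes had median log2 fold changes of 0.03 over 34 nuclear genes and -0.03 over 7 mitochondrial genes, with 0 called in either by edgeR, DESeq2 or limma-voom (2 and 0 at an unadjusted p under 0.05).

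**Figure D4:**
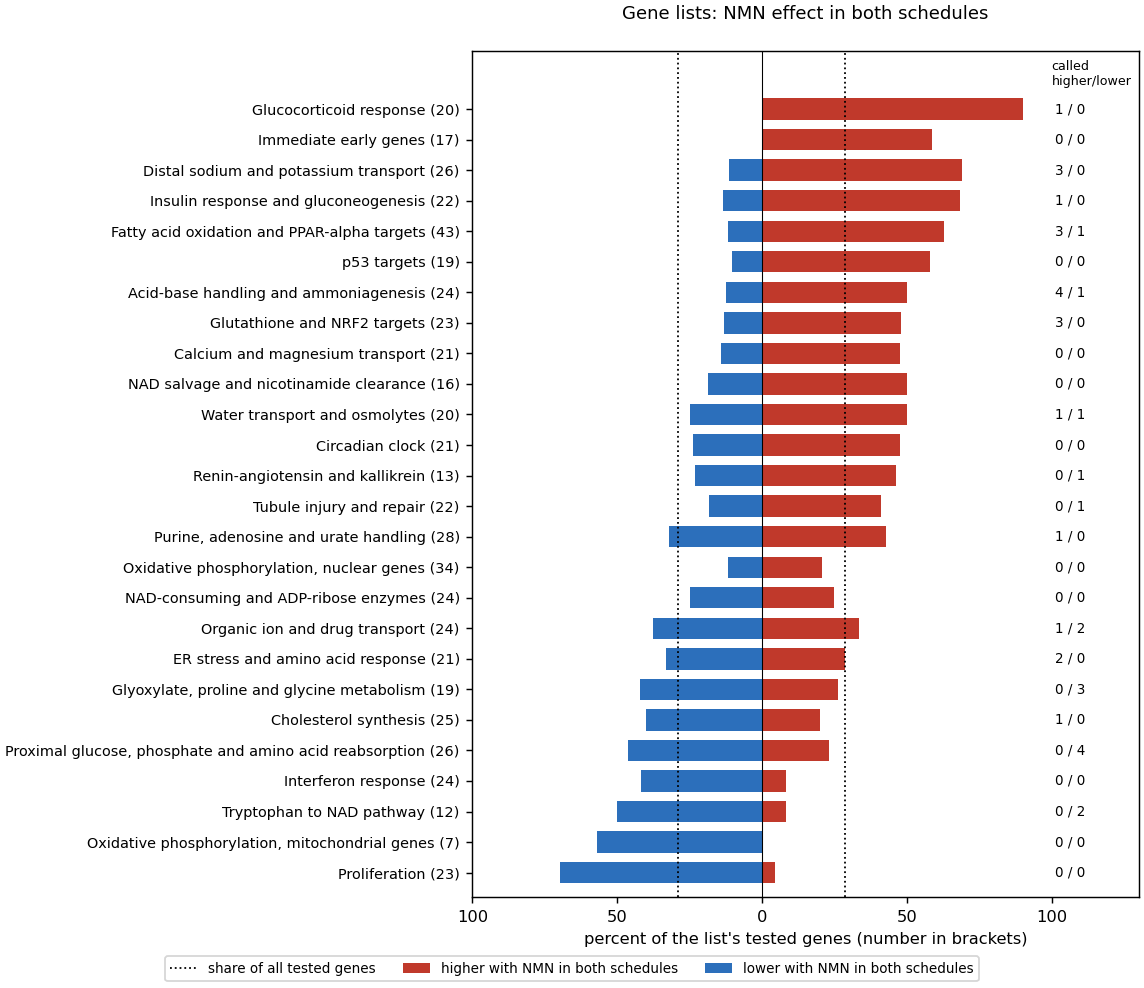
For each of 26 gene lists, the percent of tested members higher with NMN at both schedules (red, to the right) and lower at both (blue, to the left), with dotted lines at the shares of all tested genes (28.5% and 29.1%) and the called genes in each direction at the right edge. The glucocorticoid list reaches 90.0% higher and the proliferation list 69.6% lower, although these hold 1 and 0 called genes, while the acid-base list holds 4 higher and 1 lower.

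Fitted with the 14 liver libraries of the same design, the kidney genes were set beside their liver values. In the liver 2085 of 16674 tested genes (12.5%) were called, 998 higher (5.99%) and 1087 lower (6.52%) with NMN. Of the 204 kidney genes 140 (68.6%) had the same direction in the liver, beside 57.5% of all genes tested in the kidney, 57 were called there in that direction (23 higher and 34 lower with NMN), and 6 were called in the opposite direction. A difference between the organs was called for 15 of the 204, where 152 of all tested genes (0.912%) differed. Slc38a3 had the smallest p of these 15, with a log2 fold change of -0.31 in the liver and a difference of 1.61 (adjusted p = 0.000613). Glud1 was up-regulated in the kidney and down-regulated in the liver (-0.38), a difference of 0.91 (adjusted p = 0.00732). Gpc1, a heparan sulfate proteoglycan, also moved in opposite directions, with 0.53 ± 0.11 in the kidney and -1.0 in the liver (adjusted p of the difference 0.000940). Rarres2, the adipokine chemerin, was up-regulated in the kidney (1.08 ± 0.18, adjusted p = 0.0105) and stood at -0.08 in the liver, a difference of 1.16. Akr1c13, Ebp and Tfpi2 had differences of 0.74, 0.88 and -0.90. Called in the same direction in both organs were Gsta2 (1.33 in the liver), Nqo1 (0.68), Fosl2 (1.08), Fam107a (1.87), Stat3 (0.49) and Mgea5 (0.68), and among the down-regulated genes Qprt (-0.55), Amdhd2 (-0.53), Aldh4a1 (-0.40) and Slc22a28 (-2.20). The labels do not say which liver and kidney came from the same mouse, so the organs were compared as separate samples.

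**Figure D5:**
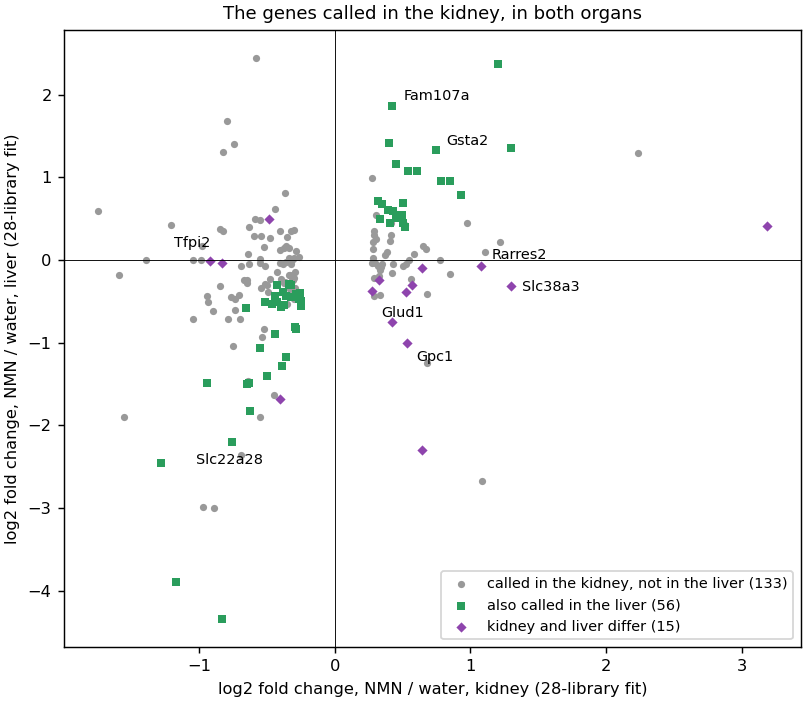
Log2 fold change of NMN over water in the kidney (horizontal axis) and in the liver (vertical axis) for the 204 genes called in the kidney, both from the fit of all 28 libraries. The 15 genes in which the organs differed are purple, 56 others called in the liver too are green, and 133 are grey, and Slc38a3 and Rarres2 lie far to the right near the zero line of the liver.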

How the data were processed

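Kidney and liver poly(A) libraries of NMN-treated and water mice were sequenced by the authors on Illumina instruments, aligned with STAR and counted by HTSeq-count (intersection-strict, strand ignored). The deposited values are raw counts of reads per gene, without normalization. Reads that aligned to several places are set apart from the gene rows, as are reads in no gene and ambiguous reads, which lie in more than 1 gene. Of all reads in the gene rows and closing rows of a kidney library, 6.45% to 12.5% were in no gene and 1.76% to 2.5% were ambiguous. These closing rows were left out of library totals and tests. The methods name the build as mm19, which matches no assembly used here, so coordinates are given only for RefSeq promoters on GRCm38.p6. Of 54446 listed genes, 53229 matched GENCODE M21 with their version, 1180 without it and 37 not at all, and symbols were taken from it.

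The 14 kidney libraries were fitted together in R 4.3.3 with edgeR 4.0.16 (filterByExpr, TMM scaling, robust quasi-likelihood F-test), with treatment and schedule as terms and Benjamini-Hochberg adjustment over the 15989 tested genes. The threshold was an adjusted p under 0.05. The biological coefficient of variation was 14.7%. SEs were derived from the log2 fold change and its F statistic, and CPM are TMM-scaled. Interaction terms tested the difference between the schedules and, over all 28 libraries, that between kidney and liver. Library properties were compared by exact permutation within schedules (1400 arrangements). Replicates of a group differed by 7.23 to 32.3 times the sampling noise (chi-square per degree of freedom), so none was a copy.

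The genes named were the 12 in each direction with the smallest p among called genes of at least 1 CPM, the 2 with the smallest p in each of 26 pathway lists, 25 genes chosen by name, up to 3 called genes that also differed between schedules (there were 0), and the 4 called genes with the smallest p between organs. Further called list members, and other genes that no rule named, Pck1 among them, were added after their values were seen. Some genes that these rules or lists hold are not reported here, but the counts include them. The members, these lists and 18 marker lists were chosen with earlier results of these data known. In counts simulated on the kidney comparison (15723 genes, 200 changed), 57% of changes of 1.5-fold and 78% of 2-fold were recovered, and 8.16% of calls were false. In counts simulated for the difference between schedules 7% and 43% were recovered, and for that between organs 12% and 50%. Alternatives were other scalings, filters and thresholds, DESeq2 1.42.0, limma-voom 3.58.1, thinned counts, a replicate block, no schedule block and each library left out.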

Additional observations from a re-analysis of the deposited data

Results flagged for a closer look

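Among 178 checks of groups of 4 kidney libraries, 10 had a sample far from the other 3, and chance gives about 1 in 20. In 3 genes it was NMN replicate 3 at 1340 mg/kg/d, with 30.4 CPM for Defb29 (others at most 24.5), 164 CPM for Nampt (others at least 198) and 1393 CPM for Egf (others at least 1559). In 3 others it was water replicate 1 at 1340 mg/kg/d, with 8.54 CPM for Akr1c13 (others at least 10.2), 16.9 CPM for Ppp1r15a (others at most 14.1) and 30.0 CPM for Arntl (others at most 6.63). In 2 it was NMN replicate 1 at 1340 mg/kg/d, with 21.7 CPM for Tyms (others at most 18.1) and 8.81 CPM for Havcr1 (others at most 2.21). The last were water replicate 2 for mt-Nd2 (7836 CPM, others at least 8974) and NMN replicate 4 for Slc12a8 (0.267 CPM, others at least 0.837).

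The effect of NMN on 8 of the named genes differed between kidney and liver in the test of that difference, given as the kidney minus the liver log2 fold change. It was 1.61 for Slc38a3, 1.53 for Gpc1, 1.16 for Rarres2, 0.91 for Glud1, 0.88 for Ebp, 0.74 for Akr1c13 and -0.90 for Tfpi2. Tyms, thymidylate synthase, had a difference of 0.85 although its kidney effect was not called. Hao2 was the named gene in which the schedules differed, with a log2 fold change lower by 1.17 at 2680 than at 1340 mg/kg/d (-1.17).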

How the results depend on the processing

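The 204 calls became 510 with DESeq2 (222 higher, 288 lower), 771 without a filter (415, 356), 2080 at an unadjusted p under 0.05 (981, 1099), 50 at an adjusted p under 0.01 (15, 35), 45 without the schedule block (15, 30) and 107 without the 3 libraries highest in Arntl (47, 60), a choice made after seeing the data. Those with the same direction at both schedules were 510, 752, 2048, 50, 45 and 107. The 113 without overlap became 196, 43 and 36 at the unadjusted p, at the adjusted p under 0.01 and without the schedule block. The 1 gene differing between schedules became 0 with upper quartile scaling, limma-voom, at least 10 counts in every library, no robust option or without the 3 libraries, 9 with DESeq2 and 106 without a filter. The 152 genes differing between organs became 574 with DESeq2. DESeq2 also made more false calls on simulated counts of the kidney comparison (17.3%, against 8.16% for edgeR).

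With 1 library left out, calls ranged from 100 to 290 (33 to 132 higher, 67 to 158 lower), those of the same direction from 99 to 290, those without overlap from 73 to 184, schedule differences from 0 to 1 and organ differences from 74 to 449. Of the 204, 80 stayed called in all 14 such fits. The call was lost in 10 of these fits for Entpd1 and Acot2, in 9 for Aqp6, Kap and Slc22a30, in 8 for Hsd17b4 and Gpt, and in 6 for Cyp4b1 and Dab2. Library properties kept their direction, from 965935 to 3418004 for the total, 234 to 636 for genes with a count, -0.416 to -0.0453 percentage points for the mitochondrial share and -1.02 to -0.594 for the share of the 20 most abundant genes.

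The labels do not say whether replicate numbers pair the mice. Water and NMN libraries of the same number had correlations of -0.0666 to 0.115 in their deviations from the group means. Those of different numbers in a schedule had correlations of -0.151 to 0.108, and so few values cannot decide whether the mice were paired. Under a replicate block 260 genes were called, 177 of them among the 204, and 2 differed between schedules. Calls lost under that block were those of Acaa1b, Aqp6, Hk1, Entpd1, Asns, Gstm1, Slc10a6, Map3k6, Pkm and Pfkp, 10 of the 77 called genes singled out by rule, as list members or after their values were seen.

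Of those 77, 49 lost the call without the schedule block, 36 without the 3 libraries highest in Arntl and 33 without water replicate 3 at 2680 mg/kg/d. The 47 among them that were named by rule kept their direction in every alternative, 35 stayed called with each library left out, the other 12 (among them Acaa1b, Aqp6, Asns, Cyp4b1, Ebp, Entpd1, Fam107a, Gpc1, Hk1, Mdk and Ppp1r15a) lost the call without water replicate 3 at 2680 mg/kg/d, 24 lost the call without the schedule block and 13 without the 3 libraries highest in Arntl. Uncalled genes changed sign: Lcn2 with limma-voom (-0.03), the replicate block (-0.0042) and without the 3 libraries (-0.17) or 1 of 3 single libraries (-0.05, -0.06, -0.26, the range over left-out libraries being -0.26 to 0.20), Sirt1 without water replicate 2 at 1340 mg/kg/d (0.0042, range -0.11 to 0.0042), and Arntl without the 3 libraries highest in it (0.32). Scaling moved the median log2 fold change of all genes from -0.001 to between -0.011 and 0.005. Camk1g had few counts (46 at most in a library) and an SE of 0.27. Few counts alone did not mark the least precise genes, since Dbp, with up to 3351 counts, had an SE of 0.58.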
